A study of Mus musculus with 6 samples.

Results

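The melanin synthesis and melanosome genes described here are Tyr, Tyrp1, Dct, Pmel, Mlana, Oca2, Slc45a2, Slc24a5, Gpr143 and Rab38, taken as a set by their role in pigment with no threshold on their values. All 10 of the 10 genes were found among the 15663 genes listed for the RPE-choroid, and all 10 were tested. This tissue joins the retinal pigment epithelium (RPE) to the choroid, the vascular and pigmented layer behind it. RNA from 3 control mice and 3 subretinal fibrosis (SRF) mice was sequenced as 6 libraries, 1 for each mouse. The controls were untreated mice, C57BL/6 in the labels and C57BL/6J in the study's methods. The SRF mice were of the same strain and had 4 laser burns in each eye and, 10 days later, the second burn on each lesion, and the RPE-choroid was collected another 20 days later. Those methods give male mice of 8 to 10 weeks, and the labels name no transgene or drug for either group. Whether both eyes of a mouse went into its library is not given in the sources used here.

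Melanin is made from tyrosine inside melanosomes, which are organelles related to the lysosome. Tyrosinase starts the pathway, the related enzymes encoded by Dct and Tyrp1 act on later intermediates, and the fibrils formed by PMEL give the melanin a scaffold. Ion transporters and channels of the melanosome membrane set its pH and calcium, and sorting proteins such as RAB38 deliver the enzymes. The eye has pigment cells of separate origin, the RPE from the optic neuroepithelium and the choroidal melanocytes from the neural crest, and both express these genes. In bulk tissue, RNA from these cells is summed, and fewer cells of a type and less RNA per cell cannot be told apart.

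The pigment genes of the SRF mice lay close to control levels. Of the 10 genes, 5 were higher and 5 were lower in SRF, with a median log2 fold change of 0.00 and a range from -0.32 for Oca2 to 0.21 for Dct. Over all 13454 tested genes the median was also 0.00. A call required a Benjamini-Hochberg adjusted p under 0.05 in edgeR's quasi-likelihood test together with an absolute log2 fold change no smaller than 0.5. None (0) of the 10 genes was called, against 0 of all tested genes (0.0%), while 943 of all tested genes (7.01%) had an unadjusted p-value under 0.05. DESeq2 on the same counts called 0 of the 10 genes and 153 of all tested genes (1.14%). Oca2 was the 1 gene of the 10 with an unadjusted p-value under 0.05, and the 1 gene whose groups did not overlap, which 13.1% of all tested genes showed in either direction and 6.43% as a decrease. The log2 fold change was within 0.25 of 0 for 9 of the 10 genes, as it was for 72.4% of all tested genes.

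**Figure D1:**
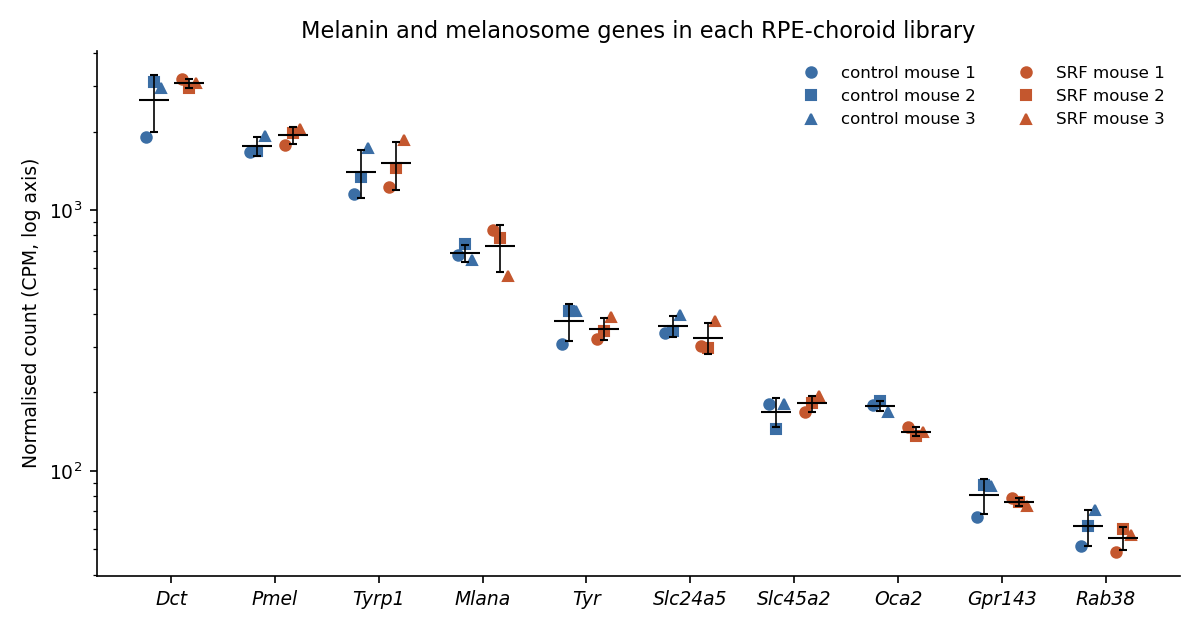
Normalised counts (CPM, log axis) of the 10 pigment genes in the 3 control (blue) and 3 SRF (orange) mice, with each marker 1 mouse, the horizontal bar the group mean and the error bar the SD. The control and SRF points interleave for 9 of the genes, and only the 3 SRF points of Oca2, at 136 to 147 CPM, lie below all 3 control points, at 169 to 185 CPM.

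Counts on genes summed to between 13667310 and 24356023 per library, and the fewest counts for any of the 10 genes in any library were 695, for Rab38 in control mouse 1. The RPE was well represented, with Rpe65, the retinoid isomerase of the visual cycle, between 2518 and 4676 CPM and Rgr, an RPE opsin, between 13960 and 27050 CPM, although Best1, an RPE chloride channel, was at only 2.76 to 4.54 CPM. Neural retina RNA differed between the libraries without following the groups. Control mouse 1 and SRF mouse 3 both had 8.20 as the mean log2 CPM of 15 photoreceptor genes, against 4.06 to 5.36 in the other 4 libraries. Without those 2 libraries, 0 of the 10 pigment genes and 153 of all tested genes (1.16%) were called by edgeR. Of the 10, 4 were higher and 6 lower, with a median of -0.19, against 0.00 for all genes. In that smaller comparison 3 of the 10, Tyr, Oca2 and Slc24a5, had an unadjusted p-value under 0.05, as 17.6% of all tested genes did. Each of the 3 was lower in SRF. With the photoreceptor level as a term in the fit of all 6 libraries, edgeR called 0 of the 10 and 1 of all tested genes (0.00743%). In that fit Oca2 was the 1 pigment gene with an unadjusted p-value under 0.05, which 8.95% of all tested genes had.

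Dct, Pmel, Mlana and Tyrp1 were among the most abundant transcripts of the tissue, and the other 6 pigment genes were at lower levels. Levels of different genes were compared by the authors' FPKM, which are scaled by transcript length. Averaged over the 6 libraries, Dct had 1301 FPKM and ranked 36 among the 15663 listed genes. Pmel followed with 932 FPKM, Mlana with 783 FPKM and Tyrp1 with 582 FPKM, ranks 52, 60 and 86. A wide gap separated these from Slc24a5, with 175 FPKM, and from the remaining 5 genes, Tyr with 61.5, Slc45a2 with 58.8, Oca2 with 53.5, Gpr143 with 49.5 and Rab38 with 37.1 FPKM. Slc24a5 ranked 472, and the last 5 ranked 1506, 1577, 1755, 1876 and 2440 in that order. Dct was above Pmel, Tyrp1 above Slc24a5, Slc24a5 above Tyr, and Gpr143 above Rab38 in 6 of 6 libraries. Some neighbours within the low group were not separated, since Tyr was above Slc45a2 in 3 of 6 libraries and Oca2 was above Gpr143 in 3 of 6. Pmel was above Mlana, Mlana above Tyrp1, and Slc45a2 above Oca2 in 5 of 6. The 10 genes together took 0.760% ± 0.105 (SD, n = 3) of all counts in control and 0.852% ± 0.0335 (SD, n = 3) in SRF mice, ranges that overlap, and Dct, Pmel, Tyrp1 and Mlana supplied 85.3% ± 1.54 (SD, n = 6) of them.

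Tyr, Tyrp1 and Dct encode the 3 related enzymes of melanin synthesis. Tyr (ENSMUSG00000004651) lies on the reverse strand of chromosome 7 of GRCm38 from 87424771 to 87493512, Tyrp1 (ENSMUSG00000005994) on the forward strand of chromosome 4 from 80834123 to 80851719, and Dct (ENSMUSG00000022129) on the reverse strand of chromosome 14 from 118012790 to 118052244. The longest sequence that their promoters share, on either strand, is a run of 10 bases that contains the core of the M-box, the element by which the transcription factor MITF is known to act on melanogenic genes. RefSeq promoters of GRCm38.p6, 250 bases before to 50 bases after each gene's start, were at hand for 5 of the 10 genes, and Pmel, Mlana, Slc45a2, Gpr143 and Rab38 had no entry. These 10 bases, GTCATGTGCT, were found on 1 strand or the other in 0.186% of all 32851 promoters. This sequence was picked because the 3 promoters share it, so its rarity among all promoters is no test of the pigment genes. The windows below show it in capitals with 10 bases on each side, 5′ to 3′ on the strand of the gene.
Tyr, chr7:87493516-87493545, reverse strand: gaaaaagttaGTCATGTGCTttgcagaaga
Tyrp1, chr4:80834155-80834184, forward strand: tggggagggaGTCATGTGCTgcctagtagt
Dct, chr14:118052379-118052408, reverse strand: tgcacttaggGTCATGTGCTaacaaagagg
The last base of the shared sequence lay 14 bases before the RefSeq start in Tyr, 39 bases before it in Tyrp1 and 143 bases before it in Dct, and in Tyrp1 the window falls after the earlier start that GENCODE annotates. The shorter TCATGTG, which is contained in the longer sequence, was also present in the promoter of Slc24a5 and in 3.77% of all promoters. Its core CATGTG was present in all 5 promoters, Oca2 included, and in 14.2% of all promoters, while the palindrome CACGTG was in 0 of the 5 and in 7.15% of all. These matches describe the letters of the windows and not binding, which was not measured.

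Tyr, the rate-limiting enzyme, was at 306, 412 and 410 CPM in control mice 1, 2 and 3 and at 321, 344 and 389 CPM in SRF mice 1, 2 and 3. All 3 SRF values lay inside the range of the control mice, which was set by the low value of control mouse 1. The log2 fold change was -0.10 (standard error 0.15), with a 95% interval from -0.46 to 0.27. Without control mouse 1 and SRF mouse 3 it was -0.31 (standard error 0.12), with an unadjusted p-value under 0.05 that 17.6% of all genes tested in that smaller comparison also had (edgeR, Benjamini-Hochberg adjusted p = 0.256). Tyrp1, which encodes a melanosomal oxidase that also steadies tyrosinase, was more variable, at 1153, 1336 and 1725 CPM in the control mice and 1231, 1448 and 1854 CPM in the SRF mice. The 3 mice of each group were spread over nearly the same range. Its log2 fold change was 0.11 (standard error 0.21) with a 95% interval from -0.38 to 0.59, and the sign turned without control mouse 1 (-0.01) or without SRF mouse 3 (-0.06).

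Dct, dopachrome tautomerase, had the largest positive difference, and that difference came from 1 library. It was at 1903, 3114 and 2948 CPM in control mice 1, 2 and 3 and at 3178, 2948 and 3086 CPM in SRF mice 1, 2 and 3. Control mouse 1 lay far below the other 5 libraries, which were all between 2948 and 3178 CPM. The means were 2655 ± 656 CPM (SD, n = 3) and 3071 ± 116 CPM (SD, n = 3), which gave 0.21 as the log2 fold change (standard error 0.19, 95% interval from -0.24 to 0.66). Without control mouse 1 and SRF mouse 3 it was 0.01 (standard error 0.13).

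**Figure D2:**
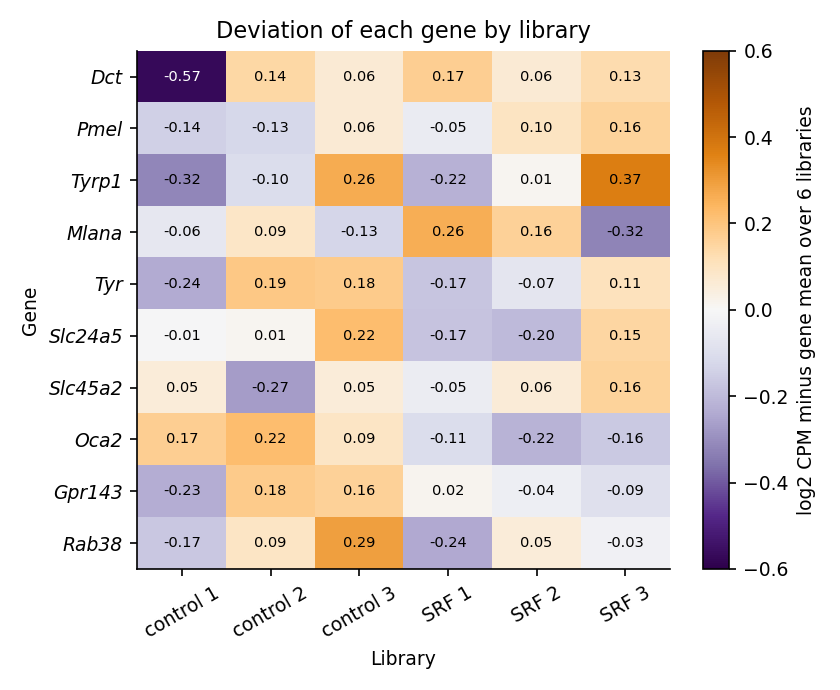
Deviation of each gene (rows) in each library (columns) from the mean of that gene over the 6 libraries, on the log2 CPM scale, with the value printed in each cell. Control mouse 1 is lowest for Dct (-0.57), Tyrp1 (-0.32), Pmel (-0.14), Tyr (-0.24) and Gpr143 (-0.23), and the row of Oca2 is the only one that is positive in every control and negative in every SRF mouse.

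Pmel and Mlana encode proteins of the early melanosome. Pmel (ENSMUSG00000025359, forward strand of chromosome 10, 128704195 to 128720238) gives the amyloid fibrils on which melanin is laid down. It was at 1669, 1689 and 1925 CPM in the control mice and 1783, 1973 and 2055 CPM in the SRF mice, with 2 of 3 SRF mice above every control. The log2 fold change was 0.14 (standard error 0.12, 95% interval from -0.14 to 0.41). Exons of Cdk2 and Dgka overlap those of Pmel on the opposite strand, and the strand setting of the counting is not given in the sources used here. Cdk2 was at 56.1 to 89.8 CPM and Dgka at 16.3 to 24.5 CPM, far below Pmel.

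Mlana (ENSMUSG00000024806, forward strand of chromosome 19, 29697824 to 29708634) encodes the small membrane protein MART-1, which takes part in the maturation of PMEL. It had 672, 744 and 642 CPM in the control mice and 839, 785 and 562 CPM in the SRF mice. The SRF mice held the highest and the lowest values, SRF mouse 3 being below and the other 2 above every control. The log2 fold change was 0.09 (standard error 0.17, 95% interval from -0.32 to 0.49), and it became -0.03 without SRF mouse 1 and 0.23 without control mouse 1 and SRF mouse 3.

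The transporters of the melanosome membrane did not share a direction. Oca2 (ENSMUSG00000030450, forward strand of chromosome 7, 56239760 to 56536518) encodes the P protein, which is needed for melanosomal chloride conductance and keeps the organelle from becoming too acidic for tyrosinase. It was at 179, 185 and 169 CPM in control mice 1, 2 and 3 and at 147, 136 and 142 CPM in SRF mice 1, 2 and 3. Every SRF mouse was below every control mouse, and the coefficient of variation was 4.52% in the control mice, the smallest of the 10 genes there, and 3.90% in the SRF mice. The means were 177 ± 8.03 CPM (SD, n = 3) and 142 ± 5.52 CPM (SD, n = 3), which gave -0.32 as the log2 fold change (standard error 0.10, 95% interval from -0.56 to -0.09), or 20.2% less as the point estimate. The decrease did not pass the test (edgeR, Benjamini-Hochberg adjusted p = 0.506; DESeq2, adjusted p = 0.107), its size was below the threshold of 0.5, and an exact permutation test over the 6 mice, two-sided, gave p = 0.1, the smallest value that 3 against 3 allow. In the authors' FPKM the groups did not overlap either, at 54.4 to 61.6 in control and 48.2 to 49.2 in SRF mice. The log2 fold change was -0.32 without control mouse 1 and SRF mouse 3, and its sign was negative in all 25 alternative settings, between -0.36 and -0.15. Its unadjusted p-value was no longer under 0.05 in edgeR without control mouse 2, without SRF mouse 2, or with the level of other RPE genes as a term.

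Slc45a2 and Slc24a5 carry protons or cations across pigment cell membranes. Slc45a2 (ENSMUSG00000022243, forward strand of chromosome 15, 11000721 to 11029233), a transporter that acts on melanosomal pH, was at 181, 145 and 181 CPM in the control mice and 169, 182 and 194 CPM in the SRF mice. The groups overlapped, with control mouse 2 low, and the log2 fold change was 0.11 (standard error 0.13, 95% interval from -0.20 to 0.42). Slc24a5 (ENSMUSG00000035183, forward strand of chromosome 2, 125068124 to 125088677), a potassium-dependent sodium and calcium exchanger, was at 338, 343 and 397 CPM in the control mice and 301, 296 and 376 CPM in the SRF mice. SRF mice 1 and 2 were below every control and SRF mouse 3 was inside the control range. Its log2 fold change was -0.15 (standard error 0.14, 95% interval from -0.48 to 0.18), and -0.31 (standard error 0.13) without control mouse 1 and SRF mouse 3, where its adjusted p was 0.274 (edgeR, Benjamini-Hochberg). Slc24a5 overlaps exons of Myef2 on the opposite strand, which was at 20.2 to 41.7 CPM.

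Gpr143 and Rab38 complete the group. Gpr143 (ENSMUSG00000025333, forward strand of chromosome X, 152781921 to 152808646), the receptor of the melanosome membrane that is lost in ocular albinism, was at 66.6, 88.7 and 87.6 CPM in the control mice and 79.1, 76.3 and 73.4 CPM in the SRF mice. All SRF values lay between the low control mouse 1 and the other controls, and the log2 fold change was -0.09 (standard error 0.14, 95% interval from -0.41 to 0.24), and -0.18 without control mouse 1 and SRF mouse 3. Rab38 (ENSMUSG00000030559, forward strand of chromosome 7, 88430273 to 88491572), a small GTPase that directs tyrosinase and TYRP1 to melanosomes, was at 51.6, 61.7 and 71.1 CPM in the control mice and 49.0, 60.1 and 56.9 CPM in the SRF mice. The groups overlapped, and the log2 fold change was -0.15 (standard error 0.15, 95% interval from -0.52 to 0.21), and -0.29 without control mouse 1 and SRF mouse 3. For these 9 genes other than Oca2 the 95% intervals covered 0 and reached from -0.52 at the lowest to 0.66 at the highest, so changes inside those limits were not resolved with 3 mice in each group.

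The pigment genes did not move as a block from mouse to mouse. Over the 6 libraries the 45 pairs of these genes had Pearson correlations of log2 CPM from -0.85 for Mlana with Slc24a5 to 0.86 for Tyrp1 with Pmel, with a median of 0.24, and 29 were positive and 16 negative. These are descriptions over 6 libraries that share normalisation and include both groups. With the group means removed, Dct and Gpr143 had 0.97, Tyrp1 and Pmel 0.945, and Mlana and Slc24a5 -0.89. The tested genes most like the mean of the 10, by Pearson correlation over the 6 libraries, were Clcn5, Rbms2, Mavs, Mafk, Derl1, Fam198a, Tgfbr3 and Chmp2b, with correlations from 0.984 to 0.993. Among 13444 genes compared, 80 exceeded 0.95. The log2 fold changes of the 8 named genes lay between -0.11 and 0.00. These small values follow from the choice of the 8 by likeness to a mean whose group difference was -0.01.

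Genes that control or serve pigmentation were taken from 6 further lists of 71 genes, 65 of which were tested. Of these 35 were higher and 30 lower in SRF, with a median log2 fold change of 0.02, and 0 were called by edgeR or by DESeq2. Without control mouse 1 and SRF mouse 3, 36 were higher and 29 lower, with a median of 0.01. An unadjusted p-value under 0.05 was reached by 4 of the 65 as an increase and 3 as a decrease, where 4.16% and 2.85% of all tested genes did so. The groups did not overlap for 5 higher and 3 lower genes, where 6.71% and 6.43% of all tested genes showed this.

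Among the transcription factors, Mitf, the main regulator of pigment cell genes, was at 52.2, 65.8 and 62.3 CPM in the control mice and 47.7, 41.1 and 34.8 CPM in the SRF mice. Every SRF mouse was below every control, with a log2 fold change of -0.55 (standard error 0.16; edgeR, Benjamini-Hochberg adjusted p = 0.448; DESeq2, adjusted p = 0.155). Tyr, Tyrp1 and Dct, whose promoter windows are shown above, had log2 fold changes of -0.10, 0.11 and 0.21 in the same libraries. A link between the level of Mitf and these values was not tested. Tfe3 and Tfeb, which belong to the same factor family as Mitf, were higher by point estimate, at 0.30 (standard error 0.11) and 0.53 (standard error 0.21). Tfe3 was at 30.7 to 34.7 CPM in control and 40.2 to 42.2 CPM in SRF mice, with no overlap, while the groups overlapped for Tfeb. Their adjusted p was 0.601 for Tfe3 and 0.665 for Tfeb (edgeR, Benjamini-Hochberg). Tfec, the remaining member, had too few counts to be tested. Otx2, an RPE and photoreceptor homeobox factor, had a log2 fold change of -0.33 (standard error 0.15). None of the 11 tested factors was called (0).

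The other machinery gave single genes in both directions. Slc7a11, the cystine transporter that feeds the sulphur-containing pheomelanin branch, was at 20.4, 19.2 and 22.9 CPM in control and 11.9, 12.7 and 15.8 CPM in SRF mice, which did not overlap. Its log2 fold change was -0.63 (standard error 0.17; edgeR, Benjamini-Hochberg adjusted p = 0.413). Myrip, which links RAB27A on RPE melanosomes to myosin VIIA, was at 54.1, 51.0 and 44.2 CPM in control and 35.8, 39.5 and 34.9 CPM in SRF mice, with a difference of -0.44 on the log2 scale (standard error 0.12). The groups did not overlap for Myrip either, while its partners Rab27a (-0.14) and Myo7a (0.06) and the melanocyte counterparts Mlph (0.10) and Myo5a (0.10) had smaller values.

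On the higher side stood Dtnbp1, a subunit of the BLOC-1 complex that sorts cargo to melanosomes, with 41.9, 39.8 and 33.2 CPM in control and 70.2, 51.7 and 54.5 CPM in SRF mice (log2 fold change 0.62, standard error 0.16; edgeR, Benjamini-Hochberg adjusted p = 0.413). The groups did not overlap, but of the 26 tested genes of melanosome biogenesis and cargo sorting 24 were within 0.25 of 0, and their median was 0.05. Mfsd12, a lysosome and melanosome cysteine importer, was at 20.7, 22.3 and 20.9 CPM against 26.9, 34.3 and 26.0 CPM (0.45, standard error 0.14). Gpnmb, a relative of Pmel that macrophages express as well, was at 614, 1011 and 1039 CPM in control and 1071, 1327 and 1277 CPM in SRF mice (0.46, standard error 0.22, and 0.22 without control mouse 1 and SRF mouse 3). Beside it, 14 of 15 macrophage genes were higher in SRF, with a summed level of 1632 to 2079 CPM in control and 3807 to 5469 CPM in SRF mice. Their part in the Gpnmb difference was not tested. All 11 tested genes of pigment signalling, among them Kit, Kitl, Mc1r, Ednrb and Edn3, were within 0.25 of 0.

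**Figure D3:**
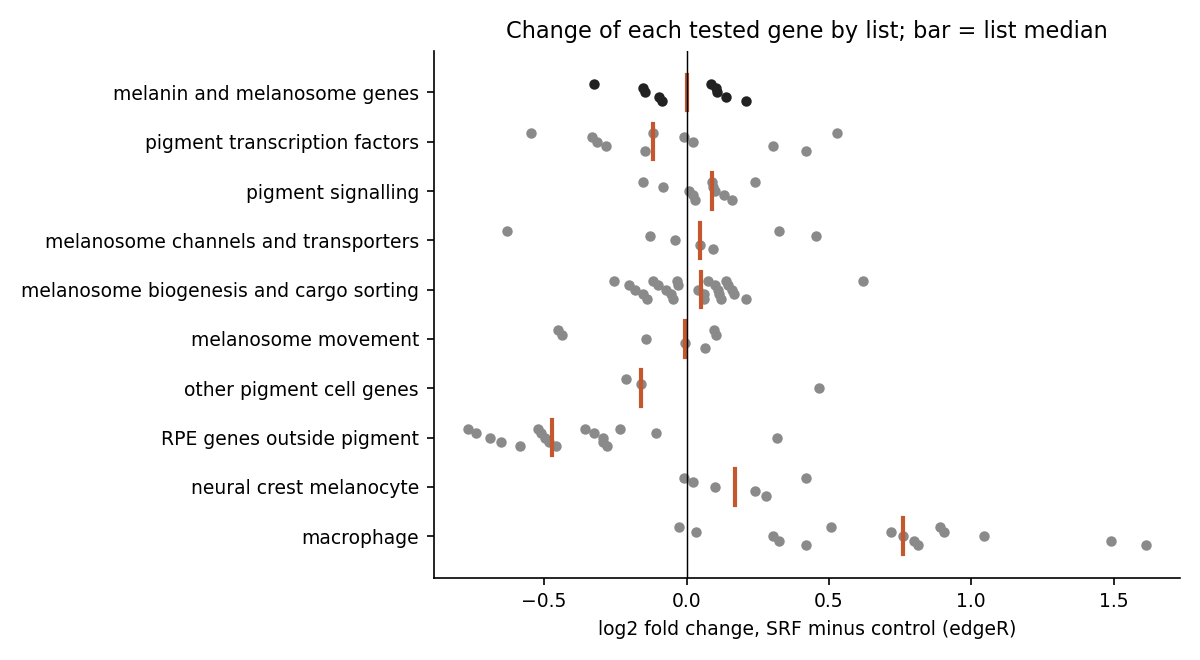
log2 fold changes (SRF minus control) of every tested gene of the pigment lists, of other RPE genes, of neural crest melanocyte markers and of macrophage genes, 1 point per gene, with the list median as an orange bar. The 10 pigment genes (black) centre on 0.00, the other RPE genes on -0.47 and the macrophage genes on 0.76.

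Other genes of the RPE were lower in the same libraries. Of 18 RPE genes with no role in pigment, 17 were lower in SRF, with a median log2 fold change of -0.47 and a range from -0.77 to 0.32, where 49.7% of all tested genes were lower. The groups did not overlap for 11 of the 18 as a decrease, against the 6.43% of all tested genes given above. An unadjusted p-value under 0.05 as a decrease was reached by 10 of the 18, against 2.85% of all tested genes. edgeR called 0 of the 18, against 0.0% of all tested genes. DESeq2 called 4 of them (Lrat, Rgr, Rrh and Ermn), against 1.14% of all tested genes. Without control mouse 1 and SRF mouse 3, 15 of the 18 were lower, with a median of -0.33. In the same libraries 7 of 7 fibroblast genes were higher in SRF by point estimate, with a median of 0.40 and 0 called. Each of the 7 overlapped between the groups, and their summed level was 4474 to 11170 CPM in control and 6938 to 12130 CPM in SRF mice. Of the 7, 4 were higher, with a median of 0.14, without control mouse 1 and SRF mouse 3. Their part in the RPE values was not tested. Lrat, which esterifies vitamin A for the visual cycle, was at 1737, 2000 and 1998 CPM in control and 1226, 997 and 1215 CPM in SRF mice, with a difference of -0.74 on the log2 scale (standard error 0.13). Rpe65 was at 4676, 4427 and 3503 CPM in control and 3447, 2877 and 2518 CPM in SRF mice (-0.51, standard error 0.17). Lrat and Rpe65 did not overlap between the groups, whereas Tyr, Tyrp1, Dct, Pmel and Mlana did.

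**Figure D4:**
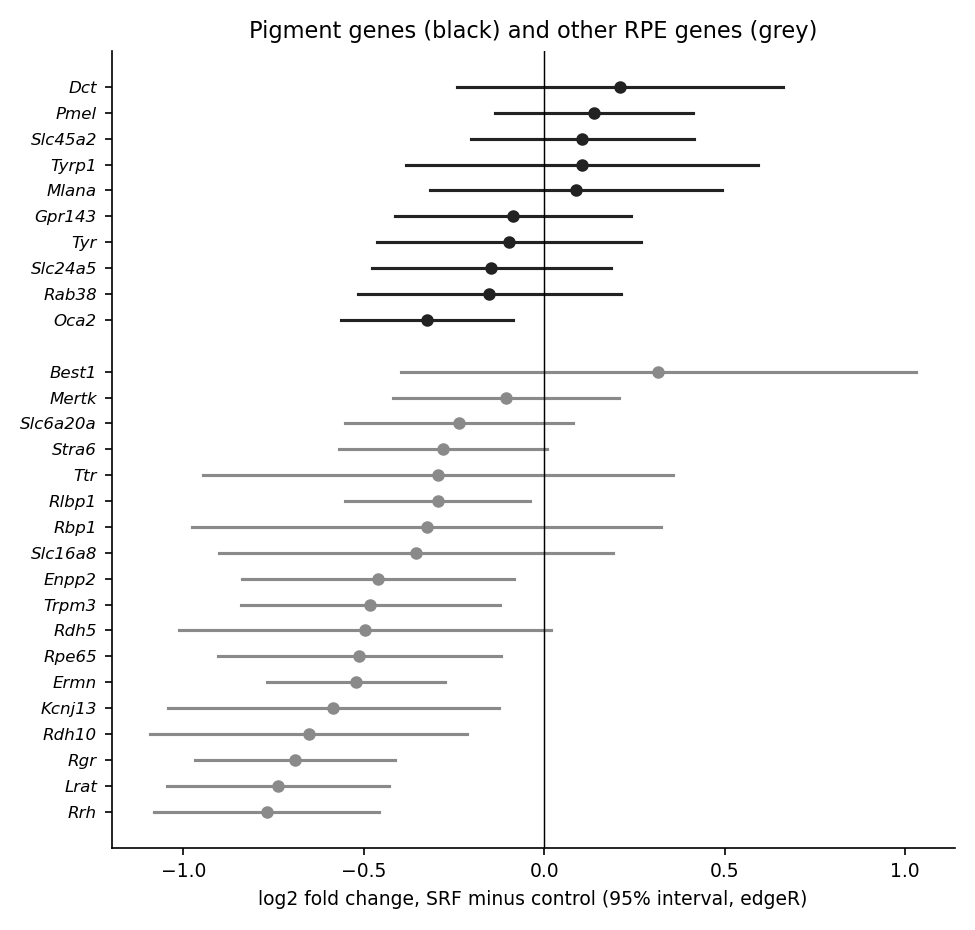
log2 fold changes with 95% intervals from edgeR for the 10 pigment genes (black) and 18 other RPE genes (grey), 3 control against 3 SRF mice. The intervals of 9 pigment genes cross 0 and that of Oca2 (-0.56 to -0.09) does not, while Rrh, Lrat and Rgr lie at -0.77, -0.74 and -0.69.

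The mean log2 CPM of the 10 pigment genes was 8.46, 8.65 and 8.73 in control mice 1, 2 and 3 and 8.55, 8.60 and 8.65 in SRF mice 1, 2 and 3. The SRF mice lay within the control range, and the group difference was -0.01, or -0.12 without control mouse 1 and SRF mouse 3. For the 18 other RPE genes the means were 10.18, 10.22 and 10.08 in control and 9.90, 9.69 and 9.62 in SRF mice, a difference of -0.42 with no overlap. Relative to those RPE genes in the same library, the pigment genes were therefore higher in SRF by 0.41 (0.24 without control mouse 1 and SRF mouse 3), with group ranges of -1.73 to -1.34 and -1.35 to -0.97 that overlapped slightly. All 10 pigment genes had a higher mean relative to the RPE genes, by 0.10 for Oca2 to 0.66 for Dct, and for 5 of them (Dct, Pmel, Mlana, Slc45a2 and Gpr143) the groups did not overlap. The same holds for 95.8% and 44.7% of all tested genes, since the RPE genes themselves were low, so these counts do not set the pigment genes apart from other transcripts.

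**Figure D5:**
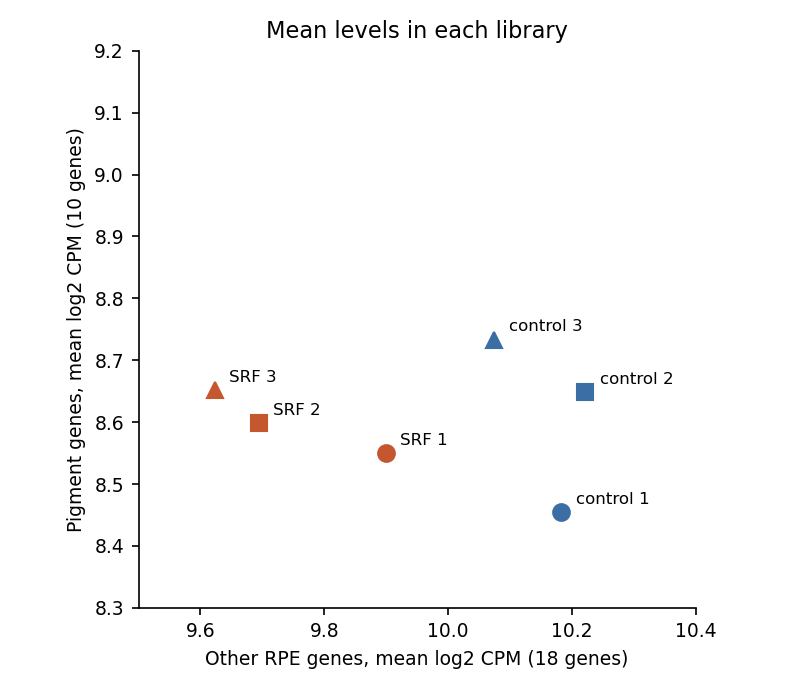
Mean log2 CPM of the 10 pigment genes (vertical axis) against that of 18 other RPE genes (horizontal axis) in each library, control in blue and SRF in orange, with equal scales. The groups separate along the horizontal axis (10.08 to 10.22 against 9.62 to 9.90) and share the range of the vertical axis.

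With the level of the RPE genes as a term in edgeR, 0 of the 10 pigment genes were called, and Tyrp1 (-0.82, standard error 0.32) and Mlana (0.75, standard error 0.30) had an unadjusted p-value under 0.05, as 15.3% of all tested genes did. That term differs between the groups without overlap, so its part and that of the group cannot be told apart.

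Markers of choroidal melanocytes were present at low to moderate levels and overlapped between the groups in all but Pax3. Of 6 neural crest melanocyte genes, 5 were higher in SRF by point estimate, with a median of 0.17 (0.29 without control mouse 1 and SRF mouse 3), and none was called (0). Sox10, the neural crest factor of melanocytes and also of Schwann cells, was at 122, 123 and 89.4 CPM in control and 129, 117 and 87.5 CPM in SRF mice (log2 fold change -0.01, standard error 0.19). Kit, the melanocyte growth factor receptor that mast cells share, was at 24.9 to 27.0 CPM in control and 25.4 to 30.7 CPM in SRF mice (0.10, standard error 0.12). Pax3 was at 4.98, 6.55 and 6.87 CPM in control and 8.52, 9.06 and 7.04 CPM in SRF mice (0.42, standard error 0.23). Of 5 tested mast cell genes 4 were higher in SRF, with summed levels of 18.4 to 25.7 CPM in control and 39.6 to 42.9 CPM in SRF mice. A further mast cell gene, Fcer1a, was not among the listed genes. By point estimate 5 of 6 Schwann cell genes were higher, with summed levels of 196 to 375 CPM in control and 235 to 919 CPM in SRF mice. The groups overlapped for each of the 6. The highest sum came with Mbp at 813 CPM in SRF mouse 2. In SRF mice 1 and 3 Mbp was at 144 and 228 CPM, and in control mice 1, 2 and 3 at 310, 128 and 250 CPM. The part of mast cells and Schwann cells in the values of Kit and Sox10 was not tested.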

How the data were processed

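The authors filtered reads with FASTP 0.18.0 and counted reads per gene with StringTie, and the deposited counts are unnormalized integers. The authors' FPKM divide these by transcript length and sequencing depth. The aligner, genome build, annotation and strand setting are not given in the sources used here. Of 15663 identifiers, 15659 were found in GENCODE M21 (GRCm38), which gave symbols and positions. No listed gene had fewer than 1 count in a library.

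Genes above 50 counts in 2 or more libraries were tested with edgeR 4.0.16 (R 4.3.3; TMM, estimateDisp, glmQLFit with its default legacy = TRUE, glmQLFTest, group as the only term), with Benjamini-Hochberg adjustment over 13454 genes. CPM are TMM-normalized (factors between 0.978 and 1.03), and 95% intervals come from the fit. Alternatives used DESeq2 1.42.0 and limma 3.58.1. The fit was tested on simulated data. The 10 genes form a set by function, with no cutoff on their values, but they, the lists and the settings were chosen with earlier results of these data known. The genes that could be named were the 10 pigment genes, those of the lists, and the 8 genes most correlated with their mean; Cdk2, Dgka and Myef2 were added for their overlap. Asip and Vamp7 were not analysed here.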

Additional observations from a re-analysis of the deposited data

How the results depend on the processing

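In none (0) of the 25 alternative settings was any of the 10 pigment genes called. Over all tested genes, edgeR's 0 calls became 1 with legacy = FALSE, library totals alone, filterByExpr, no filter, the photoreceptor level as a term, or limma-voom, and 2 with limma on log2(FPKM + 1) or log2(FPKM + 0.1). DESeq2 gave 153 calls, and edgeR without control mouse 1 and SRF mouse 3 gave 153. With 1 mouse left out the calls ran from 0 to 5 in edgeR, 5 being without control mouse 1. DESeq2 gave 246, 90 and 182 without control mouse 1, 2 or 3 and 151, 67 and 343 without SRF mouse 1, 2 or 3. Of the wider pigment genes, between 0 and 3 were called with 1 mouse left out: Tfeb, Slc7a11 and Dtnbp1 by DESeq2 without SRF mouse 3, and Rab27b, 1 gene, by DESeq2 without control mouse 1.

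Signs turned for Tyrp1, Pmel, Mlana and Slc45a2. Tyrp1 was at -0.077 (DESeq2) and -0.064 (edgeR) without SRF mouse 3, at -0.024 and -0.014 without control mouse 1, up to 0.28 with another mouse left out, and at -0.20 without control mouse 1 and SRF mouse 3. Mlana was at -0.027 in both tools without SRF mouse 1 and at 0.251 without SRF mouse 3. With the level of the RPE genes as a term, which itself separates the groups, Tyrp1 was at -0.82, Pmel at -0.24 and Slc45a2 at -0.27. The cause was not tested. The adjusted p of Oca2 was lowest, 0.0738, in DESeq2 without SRF mouse 3.

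The labels give the mouse numbers as replicate numbers only and do not say whether these pair the libraries. Same-numbered libraries deviated with correlations of -0.48, 0.47 and -0.31 across genes, and 1 of 6 correlated best with its own number. Neural retina RNA, high in control mouse 1 and SRF mouse 3, enters these correlations, so they cannot decide whether the libraries are paired. With the replicate block edgeR made 0 calls, with 1206 unadjusted p-values under 0.05, and called 0 pigment genes. The standard errors of 0.10 to 0.21 set what 3 mice in each group could resolve. Of the 8 genes most like the mean of the pigment genes, 4 also had a Spearman correlation of 1, which 50 of the 13444 genes compared had.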
